A study of Mus musculus with 28 samples.

Results

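Tfcp2l1, Nanog, Tbx3, Gbx2 and Prdm14 are 5 transcription factor genes of the naive pluripotency network of mouse embryonic stem cells. They were taken by symbol from the series table, in which they are 5 of 30386 genes, and were followed through all 7 culture conditions. The cells were E14, a mouse embryonic stem cell line derived from the blastocyst and grown on gelatin in serum-free N2B27 medium. RNA was measured by 3′ digital gene expression sequencing, which counts reads at the ends of polyadenylated transcripts. One group was kept in 2iL, which is the GSK3 inhibitor CHIR99021 at 3 µM and the MEK inhibitor PD0325901 at 1 µM together with the cytokine LIF. In 4 groups 2iL was removed for 24, 48, 96 or 120 h, and in the remaining groups it was removed for 48 or 96 h and then given back for 24 h. These last groups are called 48 h + 2iL and 96 h + 2iL. The 120 h group is named in the sample titles and the design text, while the labels' treatment protocol lists withdrawal times to 96 h only, and the titles were followed. All groups came from the same line and had been grown in 2iL before the withdrawal. Each of 4 numbered experiments gave 1 library per group, 28 libraries in all.

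Naive pluripotency is the state of the early epiblast, and 2iL holds cultured cells in it by blocking ERK signalling, relieving repression by the TCF factor Tcf7l1, and activating STAT3 through the LIF receptor. Tfcp2l1 is a target of STAT3 and of the GSK3 branch, Gbx2 is a target of STAT3, and Tbx3 is held up by LIF signalling. Nanog is a homeodomain factor bound with Oct4 and Sox2 at much of the network, and Prdm14 is a zinc finger protein that represses FGF receptor and de novo DNA methyltransferase genes. Gbx2 has a second role in the embryo, where it marks the anterior hindbrain and sets the midbrain and hindbrain boundary against Otx2.

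The libraries held 1554830 to 2828694 counts on genes. Of 11080 genes that passed the filter on low counts, all 5 members were among those tested, and Prdm14 was the least counted, with 143 reads over the 28 libraries against 9679 for Tfcp2l1. Levels are given as CPM, counts scaled to a common library total with TMM factors, with the SD over 4 libraries. Changes are log2 fold changes ± SE from edgeR's quasi-likelihood test with Benjamini-Hochberg adjustment over all 11080 genes, called at an adjusted p under 0.05. The median log2 change of all genes lay between -0.02 and 0.02 in every comparison. The labels do not say that experiments were separate cultures, so the p-values measure only the spread between these libraries. In bulk RNA, fewer cells with a transcript and less of it per cell cannot be told apart.

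On GRCm38 (mm10) with GENCODE M21, Tfcp2l1 (ENSMUSG00000026380) covers chr1:118627945-118685168 on the plus strand with 15 exons, and Nanog (ENSMUSG00000012396) covers chr6:122707489-122714633 on the plus strand with 4. Tbx3 (ENSMUSG00000018604) lies at chr5:119670669-119684724 on the plus strand with 8 exons. Gbx2 (ENSMUSG00000034486) lies at chr1:89927956-89931179 on the minus strand with 2 exons, and Prdm14 (ENSMUSG00000042414) at chr1:13113457-13127163 on the minus strand with 8. An antisense gene, Tbx3os1, overlaps Tbx3 by 697 bases and had 16 reads over the 28 libraries. D130058E05Rik overlaps Gbx2 by 946 bases on the opposite strand. Whether counting used strand is not given in the sources used here, so reads within these shared bases could not be told apart. The partner covers chr1:89930234-89933290 on the plus strand, so the overlap lies at the 5′ ends of both genes, while the method reads 3′ ends. How many reads fell in the overlap was not measured. Nanog has processed pseudogenes, Nanog-ps1 and Nanog-ps2, and reads aligned to more than 1 place, 52.3% to 60.1% of those listed per library, were not counted.

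Promoters of 3 members were in the RefSeq table (GRCm38.p6), and the 250 bases before an annotated start of each are shown. The reason is that Nanog and Tfcp2l1 moved most alike over the 28 libraries and Gbx2 moved differently from both. The windows are Nanog at chr6:122707239-122707488 (plus strand), Tfcp2l1 at chr1:118627695-118627944 (plus strand) and Gbx2 at chr1:89931177-89931426 (minus strand), with the match to the OCT-SOX core in capitals. Nanog has another annotated start, with a window at chr6:122707315-122707564 that is not shown. Tbx3 and Prdm14 are named only.
Nanog: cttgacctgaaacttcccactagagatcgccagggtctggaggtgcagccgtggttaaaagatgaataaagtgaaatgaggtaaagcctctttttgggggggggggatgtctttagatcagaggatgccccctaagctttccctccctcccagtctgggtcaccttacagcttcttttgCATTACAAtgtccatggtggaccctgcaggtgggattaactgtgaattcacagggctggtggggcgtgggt
Tfcp2l1: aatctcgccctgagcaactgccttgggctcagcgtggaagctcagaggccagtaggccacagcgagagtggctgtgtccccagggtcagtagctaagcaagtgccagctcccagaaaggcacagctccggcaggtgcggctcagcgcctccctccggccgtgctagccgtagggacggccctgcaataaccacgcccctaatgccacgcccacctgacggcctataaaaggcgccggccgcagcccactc
Gbx2: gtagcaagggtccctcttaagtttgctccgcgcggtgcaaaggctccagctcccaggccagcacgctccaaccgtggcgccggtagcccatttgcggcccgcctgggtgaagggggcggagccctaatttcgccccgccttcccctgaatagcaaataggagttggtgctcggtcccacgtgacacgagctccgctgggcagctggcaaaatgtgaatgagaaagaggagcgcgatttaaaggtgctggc

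The Nanog window held CATTACAA, the core of its known composite element for Oct4 and Sox2, at distances of -71 to -64 from the start in transcript orientation. From the other annotated start of Nanog the same letters lie at -147 to -140. The letters searched, CATNACAA on both strands, were written with this promoter in view, and 938 of 27025 genes (3.47%) held them in the same window. The windows of Tfcp2l1 and Gbx2 held no match to those letters. Nor did any of the 3 windows match the other letters searched on both strands, which were STAT (TTCNNNGAA, in 8.13% of genes), TCF/LEF (CTTTGAT, 3.72%), ESRRB (TCAAGGTCA, 0.422%), TBX (AGGTGTGA, 1.30%) and PRDM14 (GGTCTCTAA, 0.281%). GC content was 52.0% for the Nanog window shown (57.6% for its other start), 65.2% for Tfcp2l1 and 61.6% for Gbx2, and the median over all genes was 52.4%.

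The first question of the design is how each factor behaves when 2iL is removed. Tfcp2l1, Nanog, Tbx3 and Prdm14 fell within 24 h and stayed low to 120 h, whereas Gbx2 passed the test at 48 h alone. Tfcp2l1, the factor tied to both LIF and GSK3 inhibition, stood at 485, 510, 567 and 639 CPM in the 2iL libraries of experiments 1 to 4, and at 55.3, 50.9, 74.3 and 85.7 CPM after 24 h. The groups did not overlap, and every library at 24 h was below every library in 2iL. The mean went from 550 ± 68.4 to 66.6 ± 16.3 CPM (SD, n = 4 each), a log2 change of -3.06 ± 0.33 (edgeR adjusted p = 9.18e-07). Its level then went to 18.3 ± 5.31 CPM at 48 h, 12.8 ± 3.70 CPM at 96 h and 8.87 ± 4.19 CPM at 120 h. The step from 24 to 48 h passed the test at -1.84 ± 0.39 (edgeR adjusted p = 0.00463), and the later steps of -0.53 ± 0.44 and -0.48 ± 0.48 did not. At 120 h Tfcp2l1 was lower than in 2iL by -5.91 ± 0.41 on the log2 scale (edgeR adjusted p = 6.67e-11).

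Nanog had 156, 140, 121 and 175 CPM in 2iL and 35.2, 25.5, 35.3 and 55.3 CPM after 24 h. Again the groups did not overlap. The change was -1.98 ± 0.39 (edgeR adjusted p = 0.000996), and the mean level at 24 h was 25.4% ± 6.2 of the 2iL library of the same experiment, where Tfcp2l1 was at 12.0% ± 1.6 (SD, n = 4). At 48 h the libraries held 8.81, 12.3, 9.16 and 22.1 CPM, lower than at 24 h in 4 of 4 experiments without overlap. That step was -1.52 ± 0.47 and missed the threshold (edgeR adjusted p = 0.0511), while it passed with the experiment number as a block (edgeR adjusted p = 0.0251). Over its alternatives the adjusted p of the step reached down to 1.16e-08, without the filter on low counts. The change itself was hardly different there, at -1.53, and in that setting 8 single-gene results gained a call. Nanog held 10.3 ± 3.24 CPM at 96 h and 14.8 ± 3.41 CPM at 120 h, and this difference of 0.51 ± 0.49 was within the spread (edgeR adjusted p = 0.661).

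Tbx3, a T-box factor, went from 155, 170, 131 and 191 CPM in 2iL to 45.6, 43.4, 54.8 and 45.6 CPM at 24 h. The 24 h libraries lay within a narrow band, far under the lowest 2iL library. The change was -1.77 ± 0.26 at 24 h (edgeR adjusted p = 7.08e-06) and -4.12 ± 0.31 at 48 h (edgeR adjusted p = 3.78e-12). Between those times Tbx3 fell by 2.35 ± 0.32 on the log2 scale (edgeR adjusted p = 6.76e-06), to 5.70, 8.39, 11.6 and 11.7 CPM. Its mean was 6.91 ± 2.59 CPM at 96 h and 4.89 ± 1.37 CPM at 120 h, the last being 3.2% ± 1.4 of the 2iL level.

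Prdm14 rested on few reads. No library outside 2iL and 48 h + 2iL held 10 of them, so it passed the low-count filter through groups where it was high. Its calls, and the counts of members that include it, carry that limit. The 2iL libraries held 7, 10, 22 and 37 reads, or 3.38, 4.29, 8.27 and 21 CPM, so that its 2iL level spread more between experiments than that of Tfcp2l1, Nanog or Tbx3. After 24 h the libraries held 0, 3, 2 and 0 reads. The pooled level was 11.7-fold higher in 2iL than at 24 h, with a 95% interval of 4.81 to 37.1 that covers counting error only, and the test passed (edgeR adjusted p = 0.00289). At 48, 96 and 120 h the 4 libraries of each group held 1, 2 and 1 reads in all. The pooled ratios of 2iL to these groups were 62.2 (10.8 to 2490), 40.5 (10.8 to 341) and 78.9 (13.7 to 3155), and the test passed at each time (edgeR adjusted p = 0.000112 at 48 h). Differences among the withdrawn groups were not detectable at this depth.

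Gbx2 followed another course. It had 17.4, 6.87, 10.5 and 7.95 CPM in 2iL and 9.12, 2.83, 12.6 and 4.84 CPM at 24 h, with overlapping groups and a change of -0.56 ± 0.42 (edgeR adjusted p = 0.413). At 48 h it held 6.74, 1.97, 1.83 and 4.91 CPM, under every 2iL library though close to the lowest of them. This was a fall of -1.45 ± 0.45 (edgeR adjusted p = 0.014), which was lost on leaving out the experiment 1 library of 2iL (adjusted p = 0.0750) or the experiment 2 or 3 library of 48 h (adjusted p = 0.0608 and 0.0572). Levels were 7.80, 3.64, 7.41 and 5.68 CPM at 96 h and 11.2, 10.4, 20.7 and 25.9 CPM at 120 h. Gbx2 was higher at 120 h than at 96 h in 4 of 4 experiments, and the groups did not overlap. The difference of 1.47 ± 0.39 missed the threshold (edgeR adjusted p = 0.0576) and passed it with the experiment number as a block (edgeR adjusted p = 0.00968) and in DESeq2 (adjusted p = 0.0281). Against 2iL the 120 h level differed by 0.67 ± 0.37 (edgeR adjusted p = 0.139), and by 0.99 without the experiment 1 library of 2iL (adjusted p = 0.0434).

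**Figure D1:**
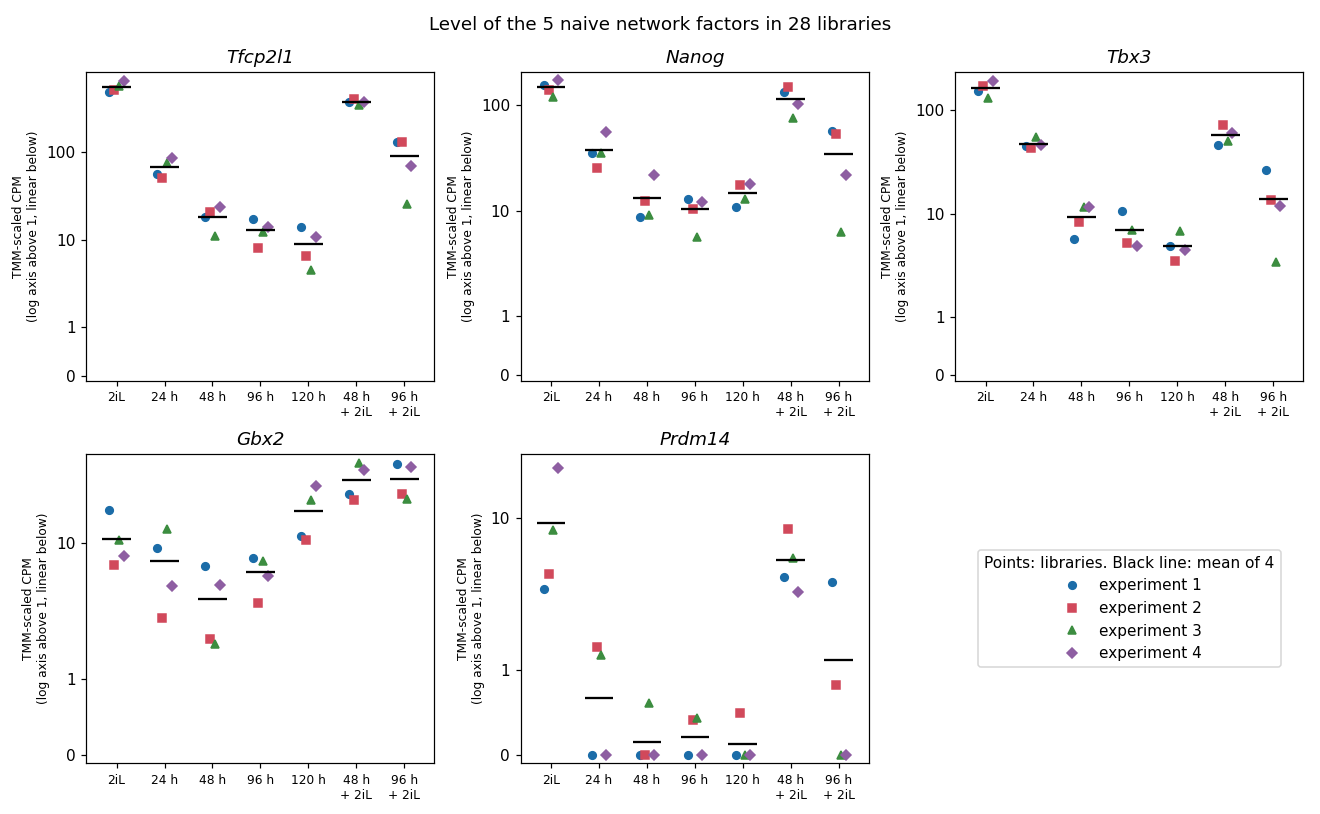
Level of each factor in the 28 libraries, in TMM-scaled CPM on an axis that is logarithmic above 1 CPM and linear below it; symbols are experiments 1 to 4 and black lines are means of 4. Tfcp2l1, Nanog and Tbx3 lie under their 2iL libraries in all 16 withdrawn libraries, Prdm14 is at 0 in many of them, and Gbx2 is lowest at 48 h and highest in the groups given 2iL back.

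Taking the 5 together, 4 were called lower at 24 h, where 8.22% of all tested genes were called lower. All 5 were called lower at 48 h, against 13.1% of genes. The number was 4 at 96 h, against 19% of genes, and 4 at 120 h, against 22.5%, Gbx2 being the exception both times. Prdm14 is in each of these counts, and it passed the low-count filter only through 2iL and 48 h + 2iL. The median change of the 5 was -1.98 at 24 h and -5.02 at 120 h, while the median of all genes was 0.01 at both. From 24 to 48 h, 2 of 5 fell (Tfcp2l1 and Tbx3), against 3.07% of genes. From 48 to 96 h none was called in either direction, while 21.2% of genes were. With only 5 genes, none called is near that share. At 48 h Tfcp2l1, Nanog and Tbx3 already stood at means of 3.3%, 8.7% and 5.9% of the 2iL library of the same experiment. None was called from 96 to 120 h either, where 0.542% of genes were. At an unadjusted p under 0.05 the members counted 0 from 48 to 96 h, where 33.3% of genes did, and 1, Gbx2, from 96 to 120 h, where 15.7% did. DESeq2 called 0 and 1 of the 5 in these steps.

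The other naive genes, a list of 16 with Esrrb, Klf2, Klf4, Klf5, Nr5a2 and Zfp42 among them, were followed beside them. At 24 h 6 of 16 were lower, including Klf4 (-1.48 ± 0.27), Esrrb (-0.98 ± 0.31) and Jam2 (-1.79 ± 0.35), and 2 were higher, Nr0b1 (1.83 ± 0.37) and Sall4 (0.55 ± 0.13). Their median change was -0.64. At 48 h 12 were lower and 1 higher with a median of -1.72, and at 120 h 15 were lower with a median of -4.37. Between 48 and 96 h 12 of these 16 fell. Whether the timing of the 2 sets differs was not tested. Of 15 formative and primed epiblast genes, which mark the next stage of the epiblast, 12 rose by 24 h and 14 by 48 h, with median changes of 2.15 and 3.41. Otx2, the boundary partner of Gbx2 and a formative factor, rose from 13.5 ± 5.73 to 182 ± 35.9 CPM within 24 h (log2 change 3.74 ± 0.56).

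Genes on the routes that 2iL acts on moved in part. Of 12 tested genes of the LIF receptor and STAT3 pathway, 3 fell at 24 h: Il6st (-1.17 ± 0.32), the signalling subunit of the LIF receptor, and the STAT3 targets Bcl3 (-1.40 ± 0.29) and Pim1 (-1.78 ± 0.22). By 48 h 7 had fallen, among them Stat3 itself (-0.91 ± 0.19) and Socs3 (-1.17 ± 0.38), the feedback inhibitor. Of 13 genes of the GSK3 and TCF route, the β-catenin targets Axin2 (-3.17 ± 0.43) and Sp5 (-5.56 ± 0.75) fell at 24 h together with Gsk3b and Tcf7, and Tcf7l1 rose (0.78 ± 0.24). Of 14 genes named as partners or targets of PRDM14, 5 rose and 1 fell at 24 h. The de novo methyltransferase genes Dnmt3a (2.25 ± 0.24) and Dnmt3b (2.56 ± 0.40) rose with their cofactor Dnmt3l (3.39 ± 0.49), as did Jarid2 (0.95 ± 0.12) and Ehmt1 (0.89 ± 0.15), while the Polycomb subunit gene Suz12 fell (-0.48 ± 0.13). Dnmt3a, Dnmt3b and Dnmt3l are also in the list of formative genes, so the counts of these lists overlap. The FGF receptor genes were not called, Fgfr1 at -0.05 ± 0.20 and Fgfr2 at 1.54 ± 0.58 (edgeR adjusted p = 0.904 and 0.0644). In the ERK feedback list, Dusp4, Dusp6, Spry2, Spry4 and Etv4 rose with Mapk3 at 24 h (6 of 16), and the immediate early genes Egr1 (-3.88 ± 0.78) and Fos (-4.45 ± 0.92) fell.

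Of 27 listed paralogs of the members 13 were tested. At 24 h 1 of these 13 fell, which is near the 8.22% of all tested genes called lower, and 2 rose. The share of all genes called higher is not given here, so these counts are not read as a result about the paralogs. Grhl2, a grainyhead factor related to Tfcp2l1, rose by 2.02 ± 0.57. The T-box gene Tbx4 went from 1 read in the 4 libraries of 2iL to 39 at 24 h, a pooled ratio of 50.6 with a 95% counting interval of 8.56 to 2049. T, the T-box gene brachyury of the primitive streak, went from 173 reads to 1, and its pooled level was 133-fold higher in 2iL with an interval of 23.6 to 5298. Slc2a3, the glucose transporter gene next to Nanog, had 232 ± 48.1 CPM in 2iL, 29.6 ± 7.10 CPM at 48 h and 148 ± 43.3 CPM at 120 h, so it was low with Nanog at 48 h and higher again later. Clasp1, next to Tfcp2l1, held 31.3 ± 7.74 CPM in 2iL and 53.0 ± 7.59 CPM at 120 h.

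The next comparison asks what 24 h of 2iL does after 48 h without it. All 5 members rose, against 7.1% of all genes called higher, with a median change of 3.15. Prdm14 is in this count, and it passed the low-count filter only through 2iL and 48 h + 2iL, so its rise is not independent of the filter. Tfcp2l1 reached 371, 404, 342 and 375 CPM from 18.1, 20.7, 11 and 23.3 CPM in experiments 1 to 4. The libraries given 2iL lay close together and far above those at 48 h, a change of 4.34 ± 0.38 (edgeR adjusted p = 3.53e-08). Nanog reached 133, 149, 76.1 and 104 CPM, a change of 3.15 ± 0.44 (edgeR adjusted p = 2.44e-05). Tbx3 reached 46.0, 72.3, 49.9 and 59.6 CPM, a change of 2.62 ± 0.31 (edgeR adjusted p = 2.13e-07). For both, the lowest library with 2iL was above the highest at 48 h. Gbx2 reached 22.7, 20.6, 38.2 and 34.0 CPM, also without overlap (2.88 ± 0.42, edgeR adjusted p = 5.5e-06). Prdm14 reached 8, 20, 13 and 7 reads from 0, 0, 1 and 0. Its pooled ratio was 38.9, with a 95% counting interval of 6.66 to 1568 (edgeR adjusted p = 0.0024).

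The 5 differed in where this left them against cells never withdrawn. Tfcp2l1 was at 58.7% to 79.2% of the 2iL library of the same experiment, mean 68.7% ± 10.6 (SD, n = 4), and below it in 4 of 4 experiments. Every 48 h + 2iL library was under every 2iL library, yet the difference of -0.56 ± 0.30 was not called (edgeR adjusted p = 0.256). It was called in a fit of these groups alone (edgeR adjusted p = 0.00107). Nanog was at 78.5% ± 21.8, with experiment 2 at 106.3%, and its difference of -0.36 ± 0.36 was not called (edgeR adjusted p = 0.610). Tbx3 was at 35.4% ± 6.0, between 29.8% and 42.5% in every experiment, and this was lower than 2iL (-1.5 ± 0.25, edgeR adjusted p = 0.000103). Gbx2 overshot its 2iL level in 4 of 4 experiments, at 131%, 300.0%, 363% and 427.5%, and the difference passed the test (1.43 ± 0.36, edgeR adjusted p = 0.00705). Prdm14 lay on both sides, from 15.5% to 195.9%, with -0.77 ± 0.63 (edgeR adjusted p = 0.506). So 1 of 5 was called lower and 1 higher, against 5.42% and 6.02% of genes. There was no group withdrawn for the same total time as 48 h + 2iL.

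**Figure D2:**
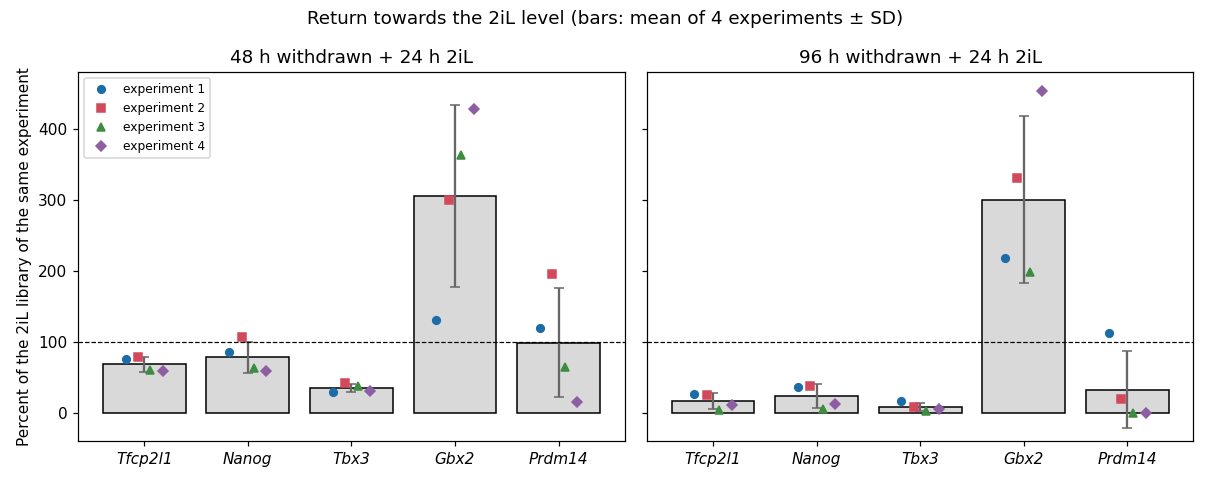
Level after 24 h of returned 2iL as a percent of the 2iL library of the same experiment, after 48 h (left) or 96 h (right) without it; bars are means of 4 experiments with SD, symbols are experiments, and the dashed line is the 2iL level. After 48 h Tfcp2l1 averaged 68.7% and Tbx3 35.4%, after 96 h 16.9% and 8.5%, while Gbx2 was above its 2iL level in every experiment of both groups.

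Among the other naive genes, 6 of 16 rose when 2iL was returned at 48 h. These were Esrrb (2.42 ± 0.34), Klf2 (2.07 ± 0.40), Klf4 (1.94 ± 0.29), Nr5a2 (2.03 ± 0.35), Jam2 (2.78 ± 0.44) and Tcl1 (0.79 ± 0.24), and the list's median was 0.88. Against 2iL, 4 remained lower: Klf4 (-1.21 ± 0.26), Tcl1 (-2.11 ± 0.22), Jam2 (-1.42 ± 0.34) and Spic (-2.10 ± 0.54). Of 15 formative genes 12 fell. Of 14 PRDM14 partners and targets 4 fell, Jarid2 (-1.43 ± 0.12), Dnmt3a (-2.34 ± 0.22), Dnmt3b (-2.36 ± 0.39) and Dnmt3l (-2.25 ± 0.46), and the Dnmt3 genes are in both lists. On the GSK3 route 5 of 13 rose, with Axin2 (3.74 ± 0.44), Sp5 (6.54 ± 0.76) and Nkd1 (2.86 ± 0.61) among them, and on the STAT3 route 4 of 12, with Bcl3 (2.52 ± 0.32), Stat3 (0.75 ± 0.19) and Pim1 (1.02 ± 0.22) among them. In the ERK feedback list 4 of 16 fell and none rose: Dusp4 (-4.21 ± 0.46), Dusp6 (-2.49 ± 0.29), Spry4 (-2.43 ± 0.56) and Etv4 (-2.39 ± 0.40).

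The same return after 96 h was compared with 96 h, where it began, and with 120 h, which has the same total time. Against 96 h, 3 of 5 members rose, against 3.87% of genes. Tfcp2l1 had 130, 130, 25.3 and 69.5 CPM with 2iL and 17, 8.09, 12.2 and 13.8 CPM at 96 h. The groups did not overlap, though the experiment 3 library with 2iL stood well under the rest. The change was 2.81 ± 0.38 (edgeR adjusted p = 5.14e-05). Nanog had 57.4, 54.0, 6.33 and 21.7 CPM with 2iL and 12.8, 10.5, 5.67 and 12.2 CPM at 96 h. It was higher in 4 of 4 experiments, but in experiment 3 barely, and the groups overlapped. The change was 1.78 ± 0.46 (edgeR adjusted p = 0.015). Without the experiment 1 or 2 library given 2iL it was 1.45 or 1.48 and no longer called (adjusted p = 0.0571 and 0.0625), nor was it in a fit of these groups alone (adjusted p = 0.157).

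Gbx2 rose to 38.0, 22.7, 20.9 and 36.0 CPM, well clear of its 96 h libraries (2.25 ± 0.39, edgeR adjusted p = 0.000138). Experiment 3 was lowest here too, but close to experiment 2. Tbx3 held 26.6, 13.6, 3.41 and 11.8 CPM with 2iL and 10.6, 5.26, 6.98 and 4.87 CPM at 96 h, so experiment 3 went the other way from the other 3. The difference of 1.02 ± 0.35 was not called (edgeR adjusted p = 0.0614), and without the experiment 3 library it was 1.35 (adjusted p = 0.00243). It was also called without the experiment 1 library of 96 h (adjusted p = 0.0357) and in DESeq2 (adjusted p = 0.0414). Prdm14 had 8, 2, 0 and 0 reads with 2iL and 0, 1, 1 and 0 at 96 h. The pooled ratio was 5.74, with a counting interval of 1.22 to 53.9, and the test did not pass (edgeR adjusted p = 0.266).

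Against 120 h, 2 of 5 were called higher, against 1.14% of genes. Tfcp2l1 differed by 3.29 ± 0.40 (edgeR adjusted p = 5.45e-05) and Tbx3 by 1.5 ± 0.37 (edgeR adjusted p = 0.0191). In a fit of these groups alone neither was called (adjusted p = 0.0698 and 0.183), and the Tbx3 call was also lost without the experiment 1 or 2 library of 96 h + 2iL or the experiment 1, 2 or 4 library of 120 h (adjusted p between 0.0561 and 0.216). Nanog differed by 1.27 ± 0.44 (edgeR adjusted p = 0.166), and by 1.62 without the experiment 3 library (adjusted p = 0.00252). Gbx2 differed by 0.78 ± 0.35 (edgeR adjusted p = 0.309).

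Against cells kept in 2iL, 4 of 5 were lower and Gbx2 was higher, against 19.4% of genes called lower and 21.4% called higher. The count of lower members includes Prdm14, with the same limit from the low-count filter. Tfcp2l1 was at 26.8%, 25.5%, 4.5% and 10.9% of the 2iL library of experiments 1 to 4, Nanog at 36.8%, 38.5%, 5.2% and 12.4%, and Tbx3 at 17.2%, 8.0%, 2.6% and 6.2%. For all 3 genes experiments 1 and 2 were highest and experiment 3 was lowest. The changes were -2.62 ± 0.32 for Tfcp2l1, -2.06 ± 0.39 for Nanog and -3.53 ± 0.29 for Tbx3 (edgeR adjusted p = 8.63e-07, 0.000168 and 1.89e-11). Prdm14 was 7.06-fold higher in 2iL by pooled counts, with an interval of 3.64 to 15.3 (edgeR adjusted p = 0.00257), although in experiment 1 it stood at 112.3% of the 2iL library. Gbx2 was above 2iL by 1.45 ± 0.36 (edgeR adjusted p = 0.00151), and between 199% and 453% of it in every experiment.

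Set directly against 48 h + 2iL, the later return left 4 of 5 lower, against 11.1% of genes. Prdm14, which passed the low-count filter only through 2iL and 48 h + 2iL, is in this count. Tfcp2l1 differed by -2.06 ± 0.32 (edgeR adjusted p = 5.7e-05), Nanog by -1.70 ± 0.39 (edgeR adjusted p = 0.00238) and Tbx3 by -2.03 ± 0.29 (edgeR adjusted p = 4.33e-06), with no overlap of the groups for any of them. In a fit of these groups alone the Nanog call was lost (adjusted p = 0.0829). Prdm14 was also called lower (-2.09 ± 0.78, edgeR adjusted p = 0.0466) but not with the experiment number as a block (adjusted p = 0.0533), in DESeq2 (adjusted p = 0.0924), or without any one of 6 libraries, the experiment 1, 2 or 3 library of 48 h + 2iL or the experiment 2, 3 or 4 library of 96 h + 2iL (adjusted p between 0.0599 and 0.156). Gbx2 had 28.9 ± 8.55 CPM in the early and 29.4 ± 8.83 CPM in the late return, a difference of 0.02 ± 0.34 (edgeR adjusted p = 0.980).

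Whether the rise itself was smaller at 96 h than at 48 h was tested as a difference of the changes. It was -1.53 ± 0.54 for Tfcp2l1, -1.37 ± 0.64 for Nanog, -1.60 ± 0.48 for Tbx3, -0.63 ± 0.58 for Gbx2 and -2.54 ± 2.16 for Prdm14. None of the 5 was called (edgeR adjusted p = 0.244, 0.447, 0.117, 0.767 and 0.734), while 0.894% of genes were. At an unadjusted p under 0.05 the members counted 3, Tfcp2l1, Nanog and Tbx3, and 10.8% of all genes did. The rise of each of these was smaller at 96 h in 4 of 4 experiments. DESeq2 called Tbx3 alone (adjusted p = 0.0498). The edgeR test called it without the experiment 1 library of 96 h + 2iL (adjusted p = 0.00661).

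**Figure D3:**
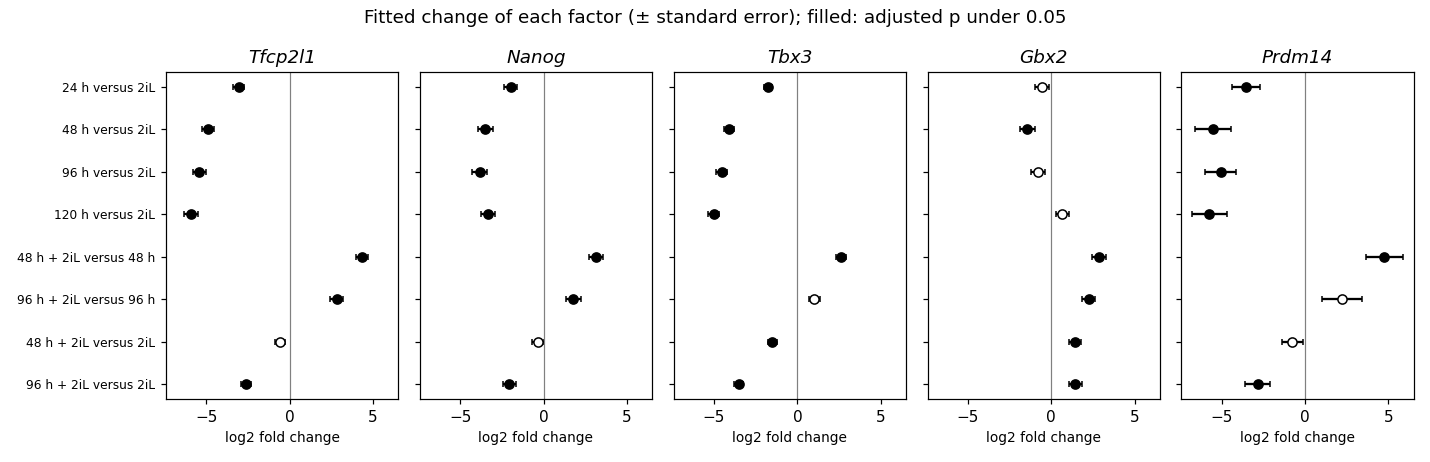
Fitted log2 fold change of each factor with its SE in 8 comparisons, from edgeR over 28 libraries; filled points passed an adjusted p of 0.05 and open points did not. Tfcp2l1, Nanog and Tbx3 run from strongly negative on withdrawal to positive on return, and Gbx2 alone is positive against 2iL after both returns.

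Other measures moved with the low experiment 3 library of 96 h + 2iL. Its summed level of the 16 other naive genes was 339 CPM, against 1173, 1091 and 660 CPM in experiments 1, 2 and 4. The summed level of 10 neural progenitor markers was 822 CPM in that library and 166, 233 and 468 CPM in the others, and for 10 midbrain and hindbrain boundary genes it was 606 CPM against 60.8, 139 and 191 CPM. In experiment 3 these sums were also the highest of their group at 96 h (338 CPM for neural markers, where the others held 105 to 159 CPM) and at 120 h (656 CPM, where the others held 250 to 452 CPM). Their part in the low values of Tfcp2l1, Nanog and Tbx3 was not tested. The boundary list includes Otx2, which is also a formative factor, and the sum of that list was already 176 to 259 CPM at 24 h.

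**Figure D4:**
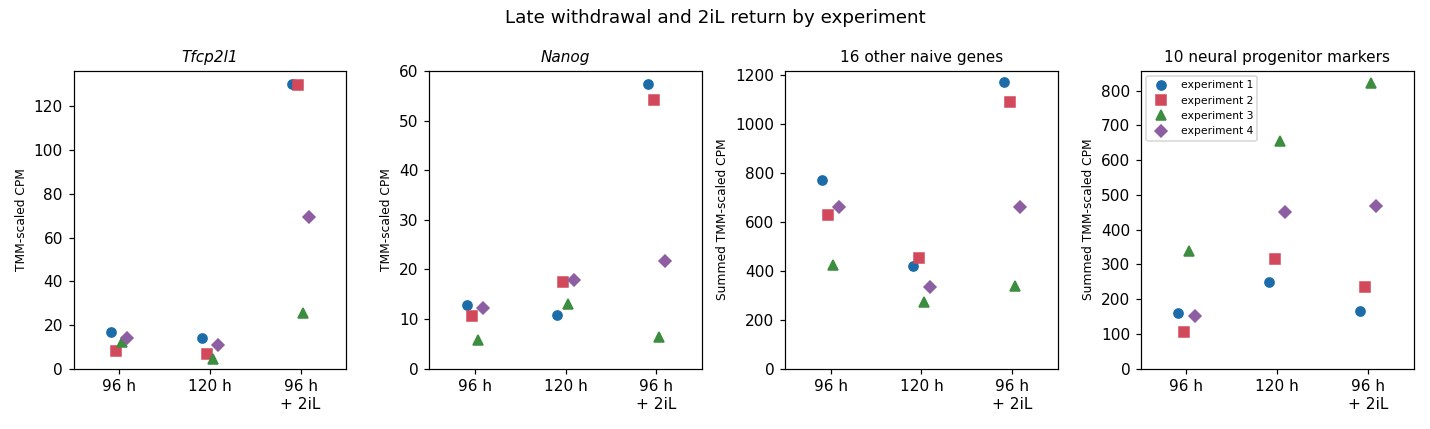
Tfcp2l1, Nanog, the sum of 16 other naive genes and the sum of 10 neural progenitor markers at 96 h, 120 h and 96 h + 2iL, in TMM-scaled CPM by experiment (symbols). The experiment 3 library of 96 h + 2iL is lowest in the first 3 panels of its group (25.3 CPM for Tfcp2l1) and highest in the last (822 CPM).

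The same lists were read beside Gbx2, which also marks the hindbrain side of the boundary. At 120 h all 9 tested boundary genes were called higher than in 2iL, among them En1 (6.31 ± 0.93), Pax2 (7.17 ± 1.14), Wnt1 (9.06 ± 1.33) and Fgf8 (5.80 ± 1.09), and so were all 8 tested neural markers. Of the 10 boundary genes none was at 0 in all 4 libraries of 120 h. In 48 h + 2iL, where Gbx2 was highest together with the late return, the boundary sum was 17.7 to 31.6 CPM, and in 2iL it was 18.2 to 35.6 CPM. No boundary gene was called higher there than in 2iL, and Otx2 was at 7.58 ± 0.76 CPM. In 96 h + 2iL 5 boundary genes were above 2iL, and En1 (4.22 ± 0.92) and Fgf8 (5.73 ± 1.09) were among them. In experiments 1 to 4 of 96 h + 2iL the boundary sum was 60.8, 139, 606 and 191 CPM. Gbx2 held 38.0, 22.7, 20.9 and 36.0 CPM there, highest where the sum was lowest and lowest where it was highest. At 120 h the sum was 454, 703, 1636 and 894 CPM. Gbx2 then held 11.2, 10.4, 20.7 and 25.9 CPM, so both were higher in experiments 3 and 4. The part of neural cells in the Gbx2 level at 120 h and 96 h + 2iL was not tested.

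After the late return the other naive genes rose in part, 5 of 16 against 96 h: Esrrb (1.99 ± 0.40), Klf2 (1.69 ± 0.42), Klf4 (1.52 ± 0.34), Nr5a2 (2.49 ± 0.45) and Jam2 (1.54 ± 0.47). Sall4 fell (-0.60 ± 0.13). Against 2iL 15 of 16 were lower, with a median of -2.52. On the GSK3 route 5 of 13 rose, Axin2 (2.09 ± 0.36) and Sp5 (3.69 ± 0.57) among them, and 1 fell, Tcf7l1 (-1.09 ± 0.25). On the STAT3 route 3 of 12 rose, Stat3 (1.12 ± 0.21), Bcl3 (2.44 ± 0.41) and Pim1 (0.84 ± 0.24). In the ERK feedback list 6 of 16 fell and none rose, with Dusp4 (-3.00 ± 0.43), Dusp6 (-2.87 ± 0.29) and Etv4 (-3.03 ± 0.48) among them. Lifr, the ligand-binding subunit of the LIF receptor, was lower than in 2iL after the late return (-2.70 ± 0.24) and after the early one (-0.77 ± 0.21). Bcl3 was lower than in 2iL after the late return (-2.50 ± 0.30), whereas Axin2 and Sp5 were not called against 2iL after either.

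How unevenly the 5 moved was measured by log2 ratios between them in each library, over 10 pairs in each of 4 comparisons, with an exact two-sided permutation test of 4 against 4 libraries. The smallest p this design allows is 0.0286, and 6 of 10 pairs had to reach it for any to pass after adjustment over the 10. At 24 h against 2iL the ratio of Tfcp2l1 to Nanog moved by -1.07 and that of Tfcp2l1 to Tbx3 by -1.31, with no overlap, so Tfcp2l1 fell the furthest of the 3 in each pair, but neither passed adjustment (exact permutation, adjusted p = 0.0952). In 48 h + 2iL against 48 h, Tfcp2l1 gained 1.23 over Nanog and 1.81 over Tbx3 (exact permutation, adjusted p = 0.0714 each). In 48 h + 2iL against 2iL 5 pairs did not overlap, 1 fewer than could pass (exact permutation, adjusted p = 0.0571 each). There Tbx3 stood lower against Tfcp2l1 by 0.94 and against Nanog by 1.11, and Gbx2 stood higher against Tfcp2l1 by 1.94, Nanog by 1.78 and Tbx3 by 2.89. In 96 h + 2iL against the same 2iL libraries 6 pairs passed (exact permutation, adjusted p = 0.0476 each). Tbx3 stood lower against Tfcp2l1 by 0.85 and against Nanog by 1.27, and Gbx2 stood higher against Tfcp2l1 by 4.28, Nanog by 3.86, Tbx3 by 5.13 and Prdm14 by 3.68. Gbx2 enters 4 of these 6 pairs, and the pairs share libraries. None passed without any one of 6 libraries, those of experiments 1, 2 and 4 in 2iL and 2, 3 and 4 in 96 h + 2iL. Fewer than the 6 pairs needed then reached the smallest p, so all were lost at once. The groups do not overlap in any of the 6 pairs, and leaving out a library cannot make them overlap. The difference in ratio between the returns was not tested.

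Likeness over the 28 libraries was measured between the factors and with all other tested genes. Pearson's r of log2(CPM + 1) is given as a description, since the libraries share 7 groups, 4 experiments and the large changes between them. It was 0.937 between Tfcp2l1 and Nanog, 0.905 between Tfcp2l1 and Tbx3, 0.904 between Nanog and Tbx3, and 0.808 to 0.843 for Prdm14 with these 3. For Gbx2 with the other 4 it was 0.131 to 0.382. Among 11079 other genes, those most like Tfcp2l1 were Myh13 (0.958), Gss (0.952), Ckb (0.938), Nanog and Bcl3 (0.932). Those most like Nanog after Tfcp2l1 were Mllt6 (0.933), Dmgdh (0.923), Zbtb44 (0.923) and Tbc1d13 (0.911), and among those most like Tbx3 were Mylpf (0.95), Klf4 (0.95), Calcoco2 (0.947) and Ulk1 (0.947). Prdm14 was nearest to Grn (0.899), Pglyrp1 (0.896), Ctsb (0.881), Ctsa (0.870) and Gss (0.868).

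Gbx2 had a different set of nearest genes: Nkx1-2 (0.850), Cdx2 (0.843), Axin2 (0.820), Cask (0.801) and Fzd10 (0.80). Cdx2, a caudal homeobox gene, had 7.25, 12.4, 16.2 and 17.6 CPM in 2iL. It was at 0 in 3 of 4 libraries at 24 h and at 48 h, and reached 11.1, 24.0, 68.2 and 46.5 CPM in 48 h + 2iL and 144, 110, 32.1 and 97.5 CPM in 96 h + 2iL. Like Gbx2 it was higher than in 2iL after the late return (2.84 ± 0.54), and unlike Gbx2 it was near 0 at 96 h, with 6 reads in 4 libraries. Axin2 had 49.6 ± 14.4 CPM in 2iL, 4.19 ± 1.14 CPM at 48 h, 36.1 ± 10.7 CPM at 120 h and 61.3 ± 6.40 CPM in 96 h + 2iL. Like Gbx2 it was low at 48 h and higher at 120 h, when 2iL was still absent. Unlike Gbx2 it was already called lower at 24 h. From 24 to 48 h neither was called, Axin2 at -0.36 ± 0.57 and Gbx2 at -0.89 ± 0.49 (edgeR adjusted p = 0.803 and 0.334). The 120 h mean of Axin2 was under its 2iL mean, while Gbx2 had 17.1 CPM at 120 h and 10.7 CPM in 2iL.

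Markers of other cell types were read in the same libraries, and their part in the members' levels was not tested. The summed level of 8 trophoblast markers was 85.9 to 156 CPM in 2iL, 18.9 to 62.4 CPM at 24 h, 26.9 to 36.2 CPM at 48 h, 33.1 to 81.7 CPM at 96 h and 54.0 to 91.5 CPM at 120 h. With 2iL given back it was 102 to 172 CPM after 48 h and 52.1 to 265 CPM after 96 h, where experiment 3 was lowest. So this sum too was under its 2iL range at 24 and 48 h, and it overlapped that range in both groups given 2iL back. Of 5 tested, Cdx2 and Tfap2c were lower at 24 h than in 2iL. Cdx2 and Krt18 were higher in 96 h + 2iL than in 2iL, and these and Krt8 were higher there than in 48 h + 2iL. Elf5, a defining trophoblast gene, had 1 read in all 28 libraries.

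The summed level of 9 primitive endoderm markers was 48.9 to 77.4 CPM in 2iL, 17 to 35.2 CPM at 24 h, 16.6 to 34.2 CPM at 48 h, 41.2 to 70.6 CPM at 96 h and 71.6 to 79.5 CPM at 120 h. It was 26.5 to 41.6 CPM in 48 h + 2iL and 47.7 to 73.6 CPM in 96 h + 2iL. The sum was thus under its 2iL range at 24 and 48 h, like Tfcp2l1, Nanog and Tbx3, and overlapped that range at 96 h, when they were still low. Of 5 tested, Lama1 was lower at 24 h (-2.37 ± 0.40), and in 96 h + 2iL against 2iL Foxa2 and Col4a1 were higher and Lama1 lower. The defining genes Gata4, Gata6, Sox17 and Sox7 had at most 7 reads in any group of 4 libraries.

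The summed level of 8 primordial germ cell markers was 264 to 429 CPM in 2iL, 55.6 to 135 CPM at 24 h, 53.7 to 83.4 CPM at 48 h, 22.7 to 58.3 CPM at 96 h and 29.0 to 35.3 CPM at 120 h. It was 205 to 274 CPM in 48 h + 2iL and 26.3 to 113 CPM in 96 h + 2iL, so it ran the way of Tfcp2l1 and Nanog. Of 7 tested 5 were lower at 24 h, with Kit (-3.23 ± 0.33) and Nanos3 (-4.06 ± 0.90) among them, and 3 rose when 2iL was returned at 48 h. The list shares Dppa3 with the naive genes and Tfap2c with the trophoblast list. The sum of 8 fibroblast markers ranged from 108 to 456 CPM over the 28 libraries and from 170 to 346 CPM in 2iL. Of 7 tested none was called against 2iL at 24 h or after either return. Against 2iL Thy1 was higher at 48 h, Thy1 and Dcn at 96 h and Col5a1 at 120 h, and Thy1 was lower in 48 h + 2iL than at 48 h. Of 11 general pluripotency genes 4 rose at 24 h and none fell, and at 120 h 8 were lower and 1 higher, with Pou5f1 at -1.98 ± 0.44 and Sox2 at -1.08 ± 0.13.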

How the data were processed

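Polyadenylated RNA of 28 E14 libraries was sequenced at the 3′ end. The submitters' processing notes name bcl2fastq, STAR 2.6.0a, HTSeq and the mm10 build for the authors' processing. The role and order of the tools and the annotation release are not given in the sources used here. Each library has a deposited file of raw counts for 31053 genes, and the deposited series table holds CPM for 30386 genes, which equalled CPM computed from the counts in 28 of 28 columns (tolerance 1e-06). No pair of libraries was identical. Rows that name no gene were left out: reads at more than 1 place (52.3% to 60.1% of those listed), with no feature (6.68% to 8.58%) and ambiguous (0.183% to 0.227%). Whether molecular identifiers were used is not stated, so intervals cover counting error only. Groups and experiment numbers were read from the sample titles.

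The counts were fitted in edgeR 4.0.16 (R 4.3.3) with TMM scaling, filterByExpr (minimum count 10, minimum total 15) and the robust quasi-likelihood test, 1 mean per group over all 28 libraries. Standard errors are the log2 change over the square root of F. The scripts were tested on simulated counts. Ratios between members used log2(CPM + 1) and scipy 1.17.1. Alternatives were DESeq2 1.42.0, other scalings, no filter, an experiment block, a fit of the compared groups alone, each library left out, and, added after the data were seen, no robust option.

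The experiment number was read as a shared experiment. Deviations of same-numbered libraries correlated at a median of 0.068, with 22 of 84 pairs over 0.1, and those of differently numbered libraries at -0.027 over 252 pairs. The members and lists were chosen with earlier results of these data known. The text names the 5 members, genes of the lists, the 5 genes most correlated with each member (passing over Gm, Rik and mitochondrial symbols and pseudogenes) and genes that overlap or neighbour a member. One gene that this rule names is not reported here.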

Additional observations from a re-analysis of the deposited data

Results flagged for a closer look

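In 35 groups of 4 libraries (5 genes in 7 groups), 1 library stood far from the rest in 2, by the gap to its nearest neighbour over the range. Chance flags about 1 in 20 groups. Both are Prdm14 in groups with 1 read in all. Such a group always meets the rule, so that chance rate does not apply to them. At 48 h the experiment 3 library held that read, 0.610 CPM, and at 120 h the experiment 2 library did, 0.497 CPM, while the other 3 libraries of each group were at 0. No library of Tfcp2l1, Nanog, Tbx3 or Gbx2 met the rule, the experiment 3 library of 96 h + 2iL included.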

How the results depend on the processing

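No call changed direction under any alternative. Among changes and ratios that passed no test, the sign differed from the main one 5 times for 2 single-gene changes, Gbx2 in 96 h + 2iL against 48 h + 2iL (-0.14 to 0.19) and Nanog at 96 h against 48 h (-0.47 to 0.02), and 21 times for 9 ratios between members, most of them with Prdm14. Of the single-gene alternatives, 1024 kept their side of the threshold, 28 gained and 23 lost a call. Fits of the compared groups alone gave 50, 2 and 4 of these. They repeat the low-count filter, and a member that fails it there is not in the tally. Main counts of called genes were 60 for 120 h against 96 h, 264 for 96 h + 2iL against 120 h and 99 for the difference between the returns. Without the filter on low counts they were 653, 493 and 321, and 1 member was called in the first (Gbx2) and 3 in the last (Tfcp2l1, Nanog and Tbx3). With the experiment block they were 497 for the first, with 1 member, and 192 for the last. In fits of the groups compared alone they were 0 and 113 for the first and second, with 0 members in the second and 2 in 96 h + 2iL against 48 h + 2iL. DESeq2 gave 271 for the first, with 1 member, and 154 for the last, with 1 member. Without the robust option the first was 126. The cause was not tested. Beyond the calls named in the results the block changed none. It gave Tfcp2l1 and Tbx3 the same calls throughout.

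Leaving out 1 library at a time gave 5 to 666 genes for 120 h against 96 h (0 to 1 member), 421 to 618 for 48 h against 24 h, 771 to 1235 for 48 h + 2iL against 2iL, 143 to 416 for 96 h + 2iL against 120 h (1 to 3 members), 622 to 1294 for 96 h + 2iL against 96 h (2 to 4 members) and 39 to 142 for the difference between the returns (0 to 1 member). The passing ratios in 96 h + 2iL against 2iL numbered 0 to 6, and 0 where fewer than the 6 pairs needed reached the smallest p. Depth limits Prdm14 most, with 76 reads in 2iL and at most 5 in any withdrawn group.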
